A study of Mus musculus with 3 samples.

Results

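The genes of cholesterol and fatty acid synthesis were followed in the mouse preosteoblast line MC3T3-E1, which comes from calvaria, the skull's flat bone. The set was named by symbol, with 21 genes of the sterol arm and 15 of the fatty acid arm, 36 in all. Of these, 35 had a probe set carrying a single gene symbol (20 sterol and 15 fatty acid genes), out of 18193 genes on the array, and Acat2 was not analysed here. Where a gene had several probe sets, the brightest on average was used and the others are given beside it.

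The cells were kept for 3 days at 37 °C in 1 of 3 media, all based on MEM α with 10% fetal bovine serum. Normal medium held nothing further. To this, osteogenic medium added 150 µM ascorbic acid 2-phosphate, a lasting vitamin C that supports collagen production, and 10 mM beta-glycerophosphate, a phosphate donor. The other culture had osteogenic medium plus 0.6% dimethyl sulfoxide (DMSO), a solvent; per the labels, calcium deposits stained more strongly with alizarin red S in it. The labels give the strain as C57BL/6, and all groups are the same immortal line. Each medium had 1 array, made from total RNA with an RNA integrity number over 9.5, so no difference below has a replicate check or a p-value.

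Cholesterol is built from acetyl units through mevalonate, isoprenoid diphosphates, squalene and lanosterol, and fatty acids are built from malonyl units on fatty acid synthase. Both routes are controlled by sterol regulatory element-binding proteins (SREBPs), membrane-bound factors encoded by Srebf2, which mainly serves sterol genes, and Srebf1, which mainly serves fatty acid genes. When membrane cholesterol is low, the escort protein SCAP carries them to the Golgi for cleavage, and the released factor binds promoters together with NF-Y and Sp1. INSIG proteins hold SCAP back when sterols are plentiful.

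The start of the member genes' promoters is shown because NF-Y and SREBP sites lie there in classic target genes. RefSeq windows of 250 bases before the annotated start (GRCm38.p6) were found for 28 of the 35 members. On both strands, 4 motifs were searched. These were TCACNCCAC, the letters of the classic sterol regulatory element, CCAAT, the core bound by NF-Y, CACGTG, an E-box that SREBPs can also bind, and GGGCGG, a core of Sp1 sites. Below, capitals mark matches to the first 3 motifs on either strand (CCAAT reads ATTGG on the other strand), for 3 sterol genes with large or well-known responses and for the fatty acid synthase gene.

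Hmgcs1, chr13:119690101-119690350, plus strand: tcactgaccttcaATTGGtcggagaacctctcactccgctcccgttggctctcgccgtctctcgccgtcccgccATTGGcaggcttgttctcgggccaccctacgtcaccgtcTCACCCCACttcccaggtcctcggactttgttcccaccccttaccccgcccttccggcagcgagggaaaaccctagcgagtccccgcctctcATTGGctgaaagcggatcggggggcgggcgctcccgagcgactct

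Idi1, chr13:8885356-8885605, plus strand: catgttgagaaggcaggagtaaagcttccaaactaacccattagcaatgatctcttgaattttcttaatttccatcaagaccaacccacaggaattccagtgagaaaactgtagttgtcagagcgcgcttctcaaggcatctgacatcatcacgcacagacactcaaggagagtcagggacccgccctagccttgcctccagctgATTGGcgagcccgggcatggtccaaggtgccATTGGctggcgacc

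Cyp51, chr5:4104698-4104947, minus strand: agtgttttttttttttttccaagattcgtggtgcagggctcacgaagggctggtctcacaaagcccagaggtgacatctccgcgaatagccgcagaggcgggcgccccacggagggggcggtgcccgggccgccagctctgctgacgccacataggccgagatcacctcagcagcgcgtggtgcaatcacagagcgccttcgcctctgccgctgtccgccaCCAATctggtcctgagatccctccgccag

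Fasn, chr11:120824548-120824797, minus strand: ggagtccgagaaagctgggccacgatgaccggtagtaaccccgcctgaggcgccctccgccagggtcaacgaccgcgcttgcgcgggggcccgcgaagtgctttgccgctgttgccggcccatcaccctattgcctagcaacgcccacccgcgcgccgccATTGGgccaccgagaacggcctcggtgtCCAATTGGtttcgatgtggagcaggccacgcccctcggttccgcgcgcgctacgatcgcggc

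The Hmgcs1 window held TCACCCCAC from 137 to 129 bases before the start and CCAAT in reverse at 3 places, and it was the 1 member of 28 with the classic element letters. Across all genes with a window, 1.22% held that motif. CCAAT was present in all 16 sterol genes with a window and in 7 of 12 fatty acid genes, against 37.5% of all genes and 40.3% of genes above the detection floor on every array. In the Fasn window a forward and a reverse CCAAT overlapped in the letters CCAATTGG. CACGTG was present in 4 of the 16 sterol genes (Hsd17b7, Sc5d, Dhcr7 and Insig1) and in 1 of the 12 fatty acid genes, Elovl5, against 6.86% of all genes and 10.1% of those above the floor. GGGCGG was present in 15 of the 16 sterol genes and 8 of the 12 fatty acid genes, against 35.4% and 65.0%. Genes with several windows were counted by any of them. A match describes these letters, and binding was not measured.

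Levels are the authors' deposited values on a log2 scale. A floor was set at the median of all probe sets, 3.54, and all 35 members were above it on every array. The arrays had medians of 3.54, 3.57 and 3.54 and 22424 to 22539 probe sets above the floor, so they shared one scale when deposited. Many deposited values repeat between arrays: 46.8% of probe sets were exactly equal in normal and osteogenic medium and 50.7% with and without DMSO. For the 18 hybridisation spike probe sets, the median difference was 0.10 between osteogenic and normal medium (range 0.00 to 0.29) and -0.03 between osteogenic medium with and without DMSO. RNA integrity, read as the 3' minus 5' signal of Actb, was 0.27, 0.20 and 0.18. Of 12 osteoblast markers, 8 had a probe set of a single symbol, and all 8 were above the floor on every array, among them Col1a1 at 12.28 to 12.50 and Sp7 at 6.42 to 7.72. The largest rises with osteogenic medium were those of Ibsp (2.18), Ifitm5 (2.04) and Alpl (1.70). With DMSO, Dmp1 fell by 2.81, from 7.83 to 5.01, while Ifitm5 rose by 1.08 and Alpl by 0.71. The mean level of the 8 was 8.81 in normal medium, 9.83 in osteogenic medium and 9.82 with DMSO, the last near-equal pair holding these opposite moves. The part of these shifts in the lipid gene results was not tested. Of 10 adipocyte markers, 7 were below the floor on all arrays, including Adipoq (1.75 on each), Fabp4 (2.41 on each) and Pparg (2.67 on each), and the list's mean level was 2.87, 2.92 and 2.89. The other 3, Cebpa (6.06 to 6.15), Lipe (3.90 to 3.97) and Retn (3.83 to 3.87), were above it. Of 11 macrophage and osteoclast markers, 7 were below the floor, including Ptprc, Cd68 and Itgam, with mean levels of 3.64, 3.62 and 3.59. The 4 above it were Ctsk (9.29 to 9.46), Lyz2 (5.40 to 5.96), Csf1r (4.41 to 4.66) and Cd14 (4.54 to 4.58), of which Lyz2 fell by 0.39 with osteogenic medium.

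**Figure D1:**
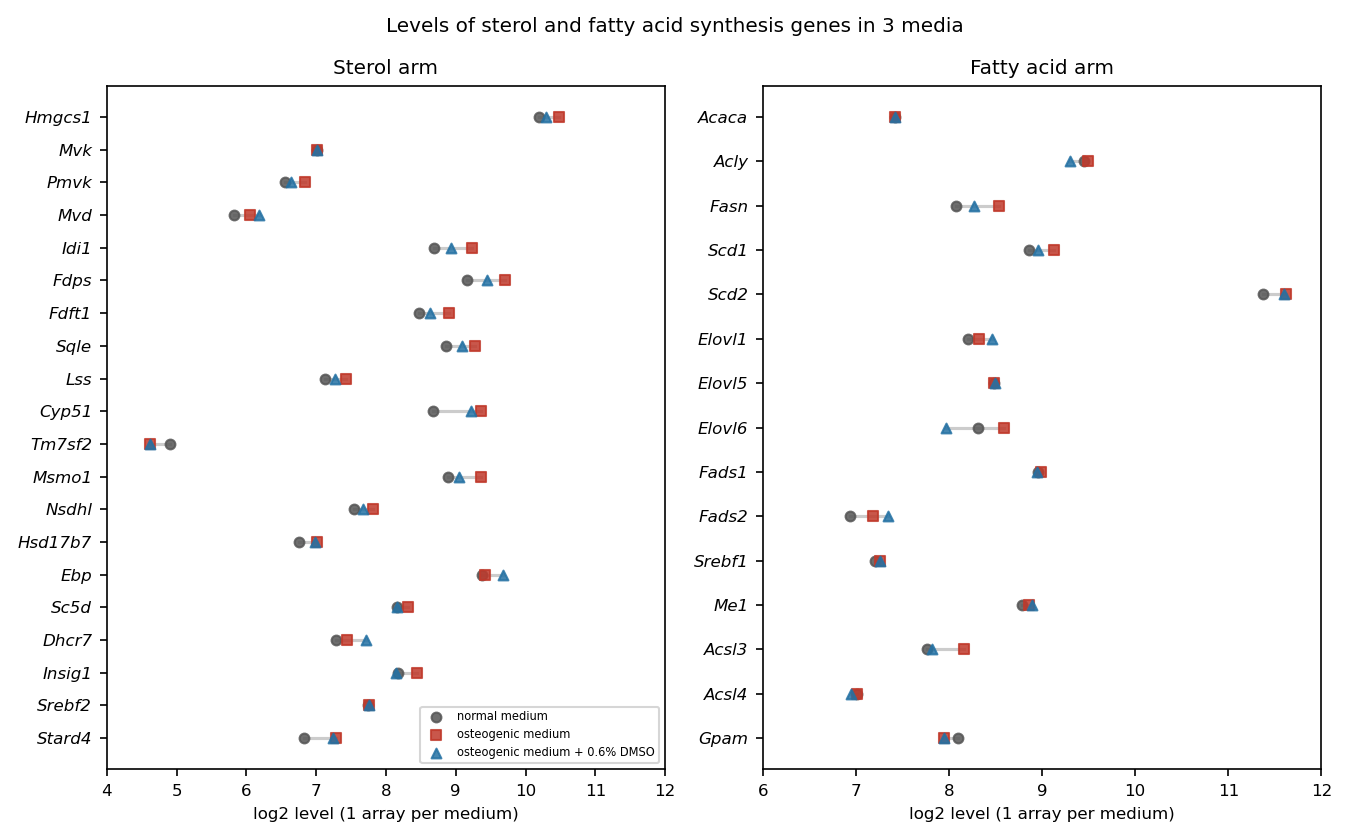
Log2 level of each member on the array of normal medium (circles), osteogenic medium (squares) and osteogenic medium with 0.6% DMSO (triangles), with the sterol arm left and the fatty acid arm right, on separate axes. By these probe sets Cyp51 moved furthest between normal (8.67) and osteogenic medium (9.37), and Elovl6 had its lowest level with DMSO (7.97).

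Osteogenic medium was first set against normal medium. Most sterol genes were modestly higher in osteogenic medium, from the early mevalonate step to the demethylation of lanosterol, while their transcription factor Srebf2 was almost level. Differences of 0.26 or more on the log2 scale, which is 1.2-fold, are called rises and falls here. Of the 20 sterol genes, 12 rose and 1 fell, and 18 lay above 0. Over the 11417 genes measured in this comparison, 8.16% rose by that rule, 8.44% fell, 36.5% lay above 0 and 38.7% below. Among the 7461 genes with a mean level of at least 6, which include every member but Tm7sf2, 8.22% rose. The sterol median was 0.28, beside 0.00 over all genes. No member reached 2-fold, where 0.473% of all genes rose and 0.184% fell.

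Among the mevalonate enzymes, Hmgcs1, the synthase that makes HMG-CoA, stood at 10.19 in normal medium, 10.47 in osteogenic medium and 10.29 with DMSO. It was 0.28 higher in osteogenic medium, and its 4 probe sets above the floor ranged from 0.23 to 0.39. Idi1, which isomerises the isoprenoid building block, stood at 8.68, 9.24 and 8.93 in the same order. It rose by 0.55, and its other probe set by 0.91. Fdps, which makes farnesyl diphosphate, stood at 9.16, 9.71 and 9.45 and rose by 0.55. Both Idi1 and Fdps were lowest in normal medium and highest in osteogenic medium without DMSO. Pmvk, a kinase of mevalonate phosphate, rose by 0.28 from 6.55 to 6.84. Mvd, the decarboxylase after it, was higher by 0.23, under the 1.2-fold rule, and by 0.39 on its other probe set. Mvk, the first mevalonate kinase, had the same value on every array (7.01), and its other probe set differed by 0.06.

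The enzymes that commit to sterols all rose. Fdft1, squalene synthase, stood at 8.47 in normal medium, 8.91 in osteogenic medium and 8.63 with DMSO, a rise of 0.44 with osteogenic medium. Of its other 2 probe sets above the floor, 1 gave 0.34 and a dimmer 1 gave 0.00. Sqle, squalene epoxidase, a rate-limiting enzyme of the route, stood at 8.87, 9.28 and 9.08 and rose by 0.42. Lss, which closes squalene epoxide into lanosterol, rose by 0.31 from 7.13 to 7.43, but its other 2 probe sets were exactly equal in both media. The rise of Lss therefore rests on 1 probe set of 3.

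The conversion of lanosterol to cholesterol was uneven. Cyp51, the lanosterol demethylase, showed the largest rise of the arm by the brightest probe set, 1.62-fold, from 8.67 to 9.37, with 9.22 in the medium with DMSO. Its other probe sets rose by 0.44 and 0.38, and by the mean over all probe sets Idi1 rose more (0.73) than Cyp51 (0.50). Msmo1, the methylsterol oxidase that acts next to Nsdhl, stood at 8.88, 9.36 and 9.04 and rose by 0.47. Nsdhl, a sterol dehydrogenase, rose by 0.28 from 7.54 to 7.81. Hsd17b7, a sterol ketoreductase, differed by 0.26, just under the rule, and its other probe sets above the floor by 0.25 and 0.15. The last enzymes showed smaller differences, at 0.16 for Sc5d, 0.16 for Dhcr7, which makes cholesterol in the final reduction, and 0.04 for Ebp, a sterol isomerase. The other probe sets of Sc5d gave 0.23 and -0.17. Tm7sf2, a sterol reductase whose reaction Lbr can also carry out, was the 1 sterol gene to fall, from 4.91 to 4.62 (-0.29). By step, the median was 0.28 for the 6 mevalonate enzymes, 0.42 for the 3 enzymes from squalene to lanosterol, and 0.21 for the 8 later enzymes.

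Among the sterol genes that are not enzymes, Stard4, a carrier of cholesterol between membranes, rose by 0.45 from 6.83 to 7.28, and its other probe sets rose by 0.36 and 0.67. Insig1, the SCAP anchor that is itself an SREBP target, stood at 8.17, 8.45 and 8.15. It rose by 0.28 with osteogenic medium, and its level with DMSO was close to that in normal medium. Srebf2 stood at 7.74, 7.75 and 7.75, a difference of 0.01, with 0.08 for its other probe set.

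The fatty acid arm moved less. Of its 15 genes, 4 rose, none fell by the rule, and 11 lay above 0, with a median of 0.08. Fasn, fatty acid synthase, stood at 8.07 in normal medium, 8.54 in osteogenic medium and 8.27 with DMSO, and rose by 0.47. The enzymes that supply it were near level. Acly, which makes cytosolic acetyl-CoA, differed by 0.04, Acaca, which makes malonyl-CoA, by 0.00 with 7.42 on each array, and Me1, a source of NADPH, by 0.08. Acsl3, which activates fatty acids at lipid droplets, rose by 0.41 from 7.76 to 8.16. Its other probe sets gave 0.47 and -0.13. Elovl6, which lengthens palmitate, rose by 0.27 from 8.31 to 8.59. Its other probe set above the floor gave 0.16.

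The desaturases were all above 0. Scd1, a stearoyl-CoA desaturase, rose by 0.27 from 8.85 to 9.13, though its other probe set gave 0.04. Scd2, its close paralog, differed by 0.25 from 11.37 to 11.62, and its other probe sets gave 0.33 and 0.09. Fads2, which desaturates polyunsaturated fatty acids, differed by 0.25 and its other probe sets by 0.21 and 0.60. Fads1, its partner, was at 0.03. The elongases Elovl1 and Elovl5 were at 0.11 and 0.00. Srebf1 differed by 0.06, Acsl4, which prefers arachidonate, by 0.00 (0.48 on 1 dimmer probe set of 3), and Gpam, the acyltransferase that starts glycerolipid synthesis, by -0.16.

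**Figure D2:**
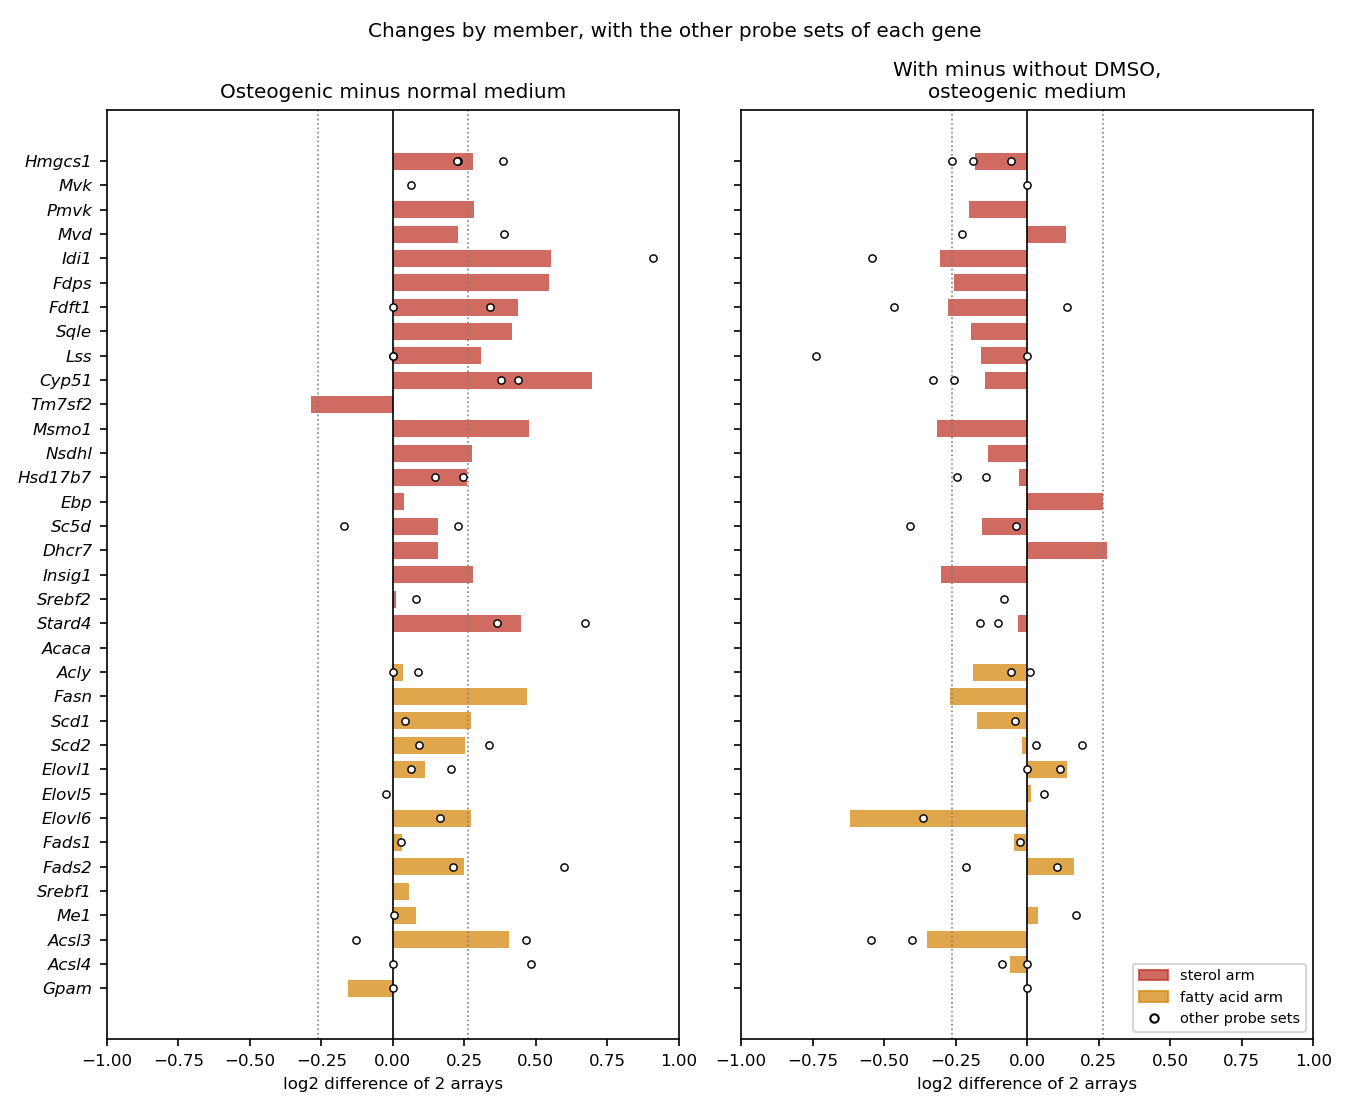
Log2 difference of each member between 2 arrays, for osteogenic minus normal medium (left) and with minus without DMSO in osteogenic medium (right). Bars are the chosen probe sets, open circles the gene's other probe sets above the floor, and dotted lines mark a 1.2-fold change. Most sterol bars point right in the left panel (18 of 20) and left in the right panel (14 of 20), and both panels use the array of osteogenic medium without DMSO.

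Agreement between probe sets of a gene was the single repeat measurement, and it covers probe noise and transcript isoforms, not the spread between cultures. Over 5183 genes with at least 2 probe sets above the floor on all arrays, the changes of the brightest pair differed with an SD of 0.19 in this comparison. Changes of 0.28 are thus 1 to 2 such SDs. In the 11 sterol genes with such a pair, the median change was 0.28 by the brighter and 0.25 by the dimmer probe set, with the same sign in 9, a value of 0 in 2 and opposite signs in 0. Of the 5183 genes, 2386 had the same sign, 2117 a value of 0 and 680 opposite signs. Over all 39 sterol probe sets above the floor, 33 were higher in osteogenic medium, 2 lower and 4 equal. They belong to 20 genes, so probe sets of the same gene are not separate support, and the share over all probe sets was not computed.

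With the arrays centred on the hybridisation spikes, the median of all genes moved by -0.10, 7 sterol genes and 2 fatty acid genes rose, and the arm medians were 0.18 and -0.02. Of all genes that passed 1.2-fold, 23.3% were rises under that centring, beside 49.2% as deposited. The list of DNA replication genes moved in the same comparison, with 15 of 25 risen (led by Cdc6 at 0.59, Mcm10 at 0.58 and Rrm2 at 0.57), none fallen and a median of 0.29, and its part in the sterol result was not tested.

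The effect of 0.6% DMSO was then read within osteogenic medium. Most sterol genes were slightly lower with DMSO, while the genes of the last steps Dhcr7 and Ebp were higher. Of the 20 sterol genes, 4 fell (Msmo1, Idi1, Insig1 and Fdft1), 2 rose (Dhcr7 and Ebp), 14 lay below 0 and 3 above. Over the 11423 genes measured, 7.02% fell, 3.95% rose, 30.3% lay below 0 and 40.5% above. Among the genes with a mean level of at least 6, 6.38% fell and 4.09% rose. The sterol median was -0.15, beside 0.00 over all genes. In the fatty acid arm 3 of 15 fell, none rose, and the median was -0.02. No member changed 2-fold, where 0.552% of all genes fell and 0.0525% rose. Both comparisons share the array of osteogenic medium without DMSO, once added and once subtracted, so its error moves them in opposite directions and their values are only set side by side.

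Msmo1 fell by 0.32, from 9.36 to 9.04. Idi1 fell by 0.31, from 9.24 to 8.93, and its other probe set by 0.54. Insig1 fell by 0.30, from 8.45 to 8.15. Fdft1 fell by 0.28, its other bright probe set by 0.46, and a dim probe set was at 0.14. These are a late demethylation enzyme, an isoprenoid enzyme, a sterol sensor and squalene synthase. Fdps, just outside the rule at -0.26, Pmvk at -0.20, Sqle at -0.20 and Hmgcs1 at -0.18 were also lower. Cyp51 was at -0.15, with its other probe sets at -0.33 and -0.26. Lss was at -0.16 by its brightest probe set and at -0.74 and 0.00 by the others. Sc5d was at -0.16, with its other probe sets at -0.41 and -0.04, and Nsdhl was at -0.14. Stard4 was at -0.03, with its other probe sets at -0.17 and -0.10. Hsd17b7 was at -0.03, with its other probe sets above the floor at -0.25 and -0.15. By their brightest probe sets, Srebf2, Mvk and Tm7sf2 had equal values on both arrays.

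Dhcr7 went the other way. It stood at 7.28 in normal medium, 7.44 in osteogenic medium and 7.72 with DMSO, and rose by 0.28 with DMSO. Ebp stood at 9.38, 9.42 and 9.68 and rose by 0.26 with DMSO. Both were highest in the medium with DMSO, and each had 1 probe set above the floor. Dhcr7 and Ebp act in the last part of the route, but Sc5d, which acts between them, was lower. Mvd was at 0.13 by its brighter probe set and at -0.23 by the other, so its direction was not settled. With quantile or cyclic loess normalization, 1 sterol gene rose with DMSO rather than 2. The gene lost was Ebp, at 0.249 and 0.245, and its 0.264 as deposited was barely past the rule of 0.263.

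By the brightest probe set, Elovl6 showed the largest difference of either arm with DMSO. It stood at 8.31 in normal medium, 8.59 in osteogenic medium and 7.97 with DMSO. It fell by 0.62, 1.54-fold, and its other probe set above the floor by 0.36. By the mean over all probe sets, those under the floor included, it was at -0.31, with Acsl3 at -0.43 and Idi1 at -0.42. Acsl3 fell by 0.35, from 8.16 to 7.81, with its other probe sets at -0.55 and -0.40. Fasn fell by 0.27, from 8.54 to 8.27, on its 1 probe set. Acly was at -0.19, with its other probe sets at -0.06 and 0.01, and Scd1 at -0.17.

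By their brightest probe sets, the remaining fatty acid genes lay between -0.06 and 0.16. Fads2 (0.16) and Elovl1 (0.14) were the highest, Scd2 was at -0.02 and Me1 at 0.04. The other probe sets of Scd2 gave 0.03 and 0.19, so its direction was not settled, and that of Me1 gave 0.17. A dimmer probe set of Fads2 gave -0.21. Acaca, Srebf1 and Gpam had equal values on both arrays. Within the arm 8 of 15 genes lay below 0, 4 above and 3 were equal.

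With DMSO, the changes of the probe set pairs of those 5183 genes differed with an SD of 0.15. In the 11 sterol genes with a pair the medians were -0.15 by the brighter and -0.25 by the dimmer probe set, with the same sign in 8, opposite signs in 1 (Mvd) and a value of 0 in 2. Of the 5183 genes, 2220 had the same sign, 580 opposite signs and 2383 a value of 0. Over all 39 sterol probe sets above the floor, 30 were lower with DMSO, 4 higher and 5 equal, again with several probe sets of the same genes and no share over all probe sets. With the arrays centred on the spikes, each by its median spike difference from normal medium, 2 sterol genes fell rather than 4, with a median of -0.11. This centring moved the median of all genes by 0.04, a larger shift than the spike median of -0.03 between these arrays would give. Under that centring 50.2% of all genes past 1.2-fold were falls, beside 64.0% as deposited. Of 25 replication genes, 3 rose with DMSO (Mcm4 by 0.28, Mcm5 by 0.28 and Rrm2 by 0.27) and none fell, with a median of 0.16.

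**Figure D3:**
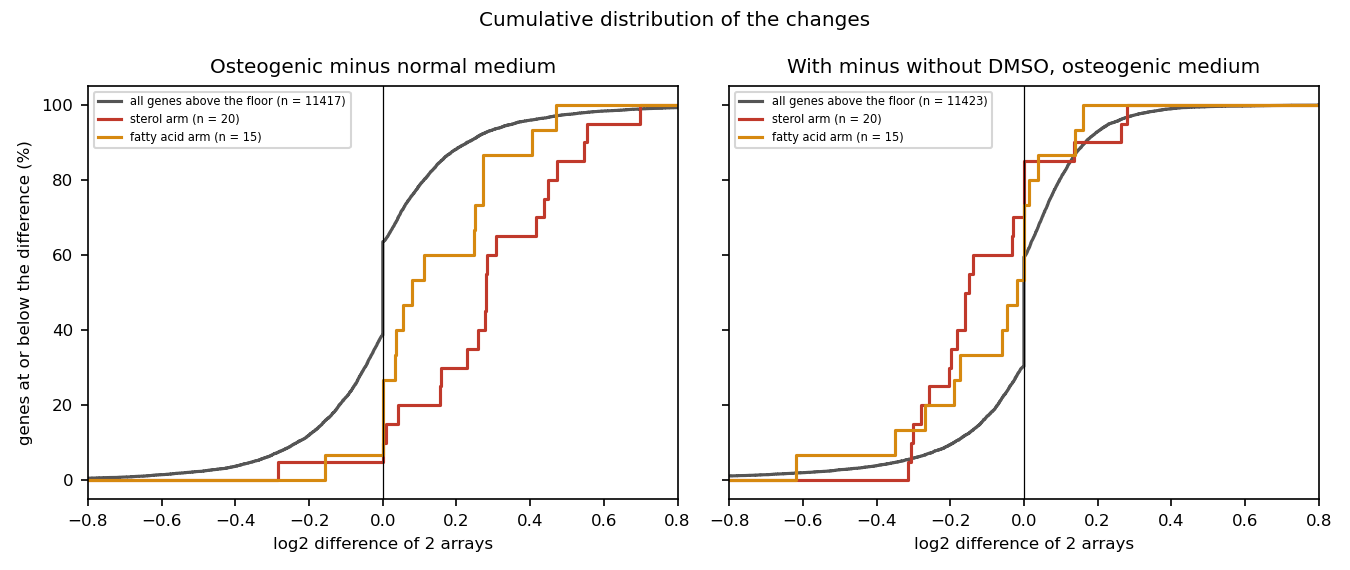
Percent of genes at or below each log2 difference, for all genes above the floor (grey), the sterol arm (red, n = 20) and the fatty acid arm (orange, n = 15), in both main comparisons. The sterol curve lies right of all genes with osteogenic medium (median 0.28) and mostly left of them with DMSO (median -0.15), and the vertical step at 0 is made by equal values.

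Osteogenic medium with DMSO was also set against normal medium, as the sum of the other differences. Of the 20 sterol genes, 6 rose, 1 fell, 16 lay above 0 and 2 below, with a median of 0.16. Of the 15 fatty acid genes, 1 rose (Fads2), 1 fell (Elovl6), and the median was 0.05. Over 11422 genes, 10.7% rose, 12.2% fell, 40.7% lay above 0 and 35.8% below, and 2-fold rises and falls made up 0.604% and 1.34%. The 6 sterol genes were Cyp51 (0.55), Dhcr7 (0.44), Stard4 (0.42), Mvd (0.36), Ebp (0.30) and Fdps (0.29), and the fall was that of Tm7sf2 (-0.29). Fads2 rose by 0.41, from 6.93 to 7.34, with 0.32 and 0.38 on its other probe sets. Elovl6 was at -0.35, with -0.20 on its other probe set. Insig1 (-0.02), Sc5d (0.00), Acsl3 (0.05) and Hmgcs1 (0.10) differed little between these arrays. The calls of Cyp51, Mvd and Stard4 depended on the probe set. The others gave 0.11 and 0.12 for Cyp51 and 0.16 for Mvd. For Stard4 they gave 0.51 and 0.26, the latter just under the rule. Signs also differed between probe sets of genes without a call. Lss was at 0.15 by its brightest probe set and at -0.74 and 0.00 by the others. Fdft1 was at 0.16 by its brightest and at -0.12 and 0.14 by the others above the floor. In the 11 sterol genes with a pair of probe sets the medians were 0.16 by the brighter and 0.04 by the dimmer, with the same sign in 5, opposite signs in 2 and a value of 0 in 4. The changes of those pairs differed with an SD of 0.29. Of all 5183 genes with a pair, 2520 had the same sign, 624 opposite signs and 2039 a value of 0, with an SD of 0.23.

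Genes around the synthesis routes were then read from lists of pathway neighbours. By the 1.2-fold rule, 8.16% of all genes rose and 8.44% fell with osteogenic medium, and 3.95% rose and 7.02% fell with DMSO. The lists are short, and their counts were not tested against these shares. Of 9 other sterol and isoprenoid enzymes measured, none rose and 1 fell with osteogenic medium (median 0.00), Dhdds at -0.43, which extends dolichol. Nus1, its partner, was at -0.23, and Aacs, which activates acetoacetate for lipid synthesis, at 0.21. With DMSO none of the 9 passed 1.2-fold, and Lbr was at 0.16. Of 9 genes that process or retain SREBPs, 1 fell and none rose with osteogenic medium (median -0.07), Paqr3 at -0.62, a Golgi anchor of SCAP. Rnf139 and Erlin1, which act on INSIG or sterol-regulated degradation in the endoplasmic reticulum, were at -0.26 and -0.23. With DMSO this list had a median of 0.13 and no call, with Erlin1 at 0.19, Rnf139 at 0.18 and Insig2 at 0.17.

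Of 12 sterol uptake and transport genes, 2 rose and 2 fell with osteogenic medium (median -0.03). Gramd1a, which moves cholesterol from the plasma membrane to the endoplasmic reticulum, rose by 0.65 from 6.30 to 6.96. Scarb1, the receptor for high-density lipoprotein, rose by 0.34. Mylip, the ubiquitin ligase that degrades lipoprotein receptors, fell by 0.65. With DMSO 2 rose and 3 fell (median 0.04). Gramd1b fell by 0.60, Gramd1a by 0.50 and the receptor Lrp1 by 0.46. Of 5 measured genes of the LXR and efflux list, Ch25h, which makes an oxysterol, rose by 0.54 and Pltp, a phospholipid transfer protein, was at -0.30 with osteogenic medium (median -0.04). Ch25h was dim, at 4.54 in normal and 5.08 in osteogenic medium. The efflux pump Abca1 was at -0.19. With DMSO none of the 5 passed the rule, Pltp was at -0.14, Abca1 at -0.09 and Ch25h at -0.07 (median -0.07).

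Of 16 other fatty acid synthesis genes, none rose and 1 fell with osteogenic medium (median 0.00), Hacd2 at -0.39, a dehydratase of the elongation cycle. Mecr and Fads3 were at 0.24 and -0.19. With DMSO 1 rose, Fads3 at 0.40, a paralog of Fads2, and none fell (median 0.04). Pgd, an NADPH source, was at 0.21, and Elovl7 was at -0.21, a bound since its level with DMSO was under the floor. Of 15 glycerolipid genes, 2 fell with osteogenic medium, Gpat3 at -0.42 and Agpat4 at -0.30, and 1 fell with DMSO, the lipid droplet coat gene Plin2 at -0.32, after 0.16 with osteogenic medium (both medians 0.00). Gpat3 was dim, at 4.48 in normal and 4.06 in osteogenic medium. Of 19 fatty acid oxidation genes, 4 fell and none rose with osteogenic medium (median -0.03), led by Eci1 (-0.36), Decr1 (-0.33) and Acadvl (-0.30). With DMSO 3 rose and none fell (median 0.11), Acadvl by 0.36, Acaa2 by 0.31 and Cpt1a, the carnitine transferase that admits fatty acids to mitochondria, by 0.27.

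**Figure D4:**
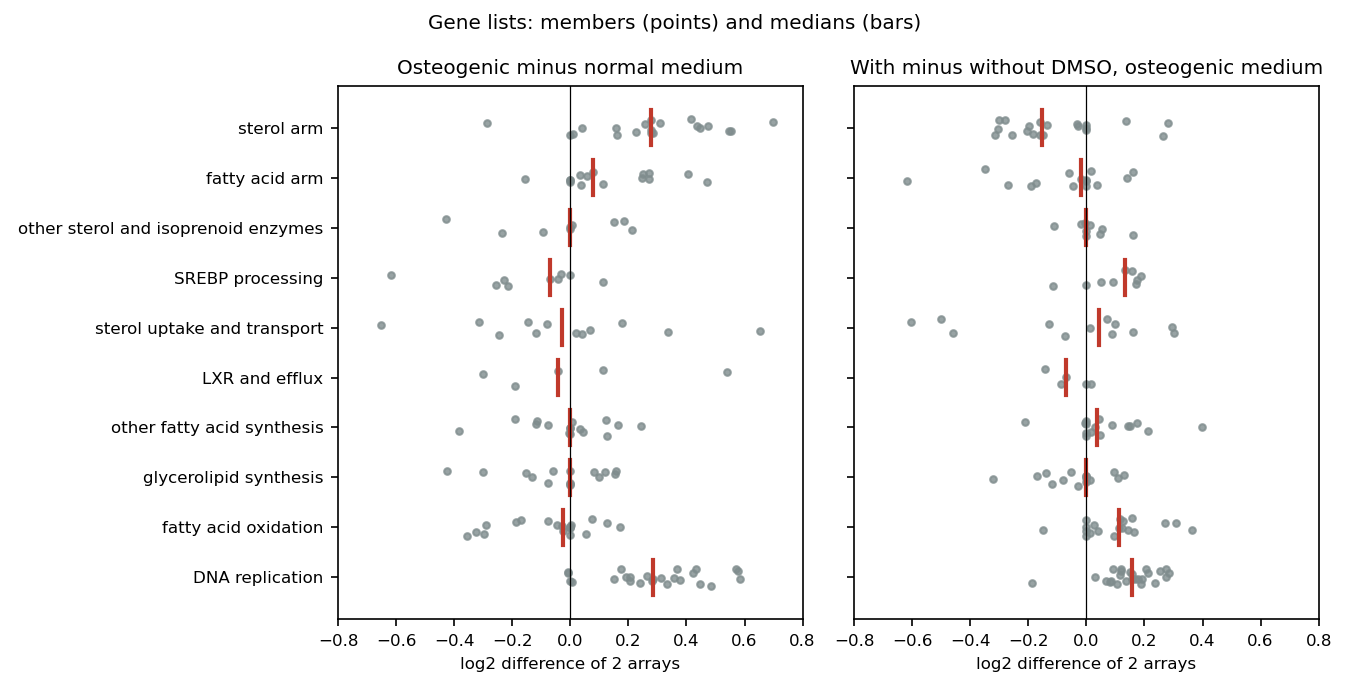
Log2 differences of the genes of each list (points) and the list's median (red bars) for osteogenic minus normal medium (left) and with minus without DMSO (right). Of the lipid lists, the sterol arm has the highest median on the left (0.28) and the lowest on the right (-0.15), while fatty acid oxidation is at -0.03 and 0.11.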

How the data were processed

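Total RNA of 3 cultures, 1 per medium, was copied with a 3' IVT kit and hybridised to Affymetrix mouse genome arrays, per the labels' protocols. The deposited table holds 45101 probe sets, and its values were taken as log2 because of their range; how the authors summarised and normalized them is not given in the sources used here. Probe sets were named by the platform annotation of 2016: of 45037 that are not controls, 34945 had 1 symbol, 932 several and 9160 none here, and only those with 1 were used. Each gene took its probe set with the highest mean. Values under the 50th percentile (3.54) were raised to it, and genes under it on both arrays were left out. Of the 35 chosen probe sets, 5 carry the suffix x, 3 s and 3 a, which mark probes shared with other transcripts of the gene or of other genes.

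Differences are between 2 arrays, with no test; counts use 1.2-fold (0.26) and 2-fold (1). All members are named; of each other list, up to 3 genes with the largest changes above the floor in each main comparison. Marker genes outside that rule and some remaining values were named after they were seen. Members and lists were chosen with earlier results of these data known. Acss2 and Hsd17b12 are in 2 lists. Alternatives were quantile and cyclic loess normalization, other probe set rules, other floors, equal values left out and, added after the values were seen, centring on the spikes. The counting scripts were tested on simulated data with a log2 change of 0.5 and a noise SD of 0.05. That is a larger change and less noise than in most member results, so it checks the counting and not calls near 0.26. Promoter windows are from RefSeq. Python 3.11.15, numpy 2.4.6, pandas 2.3.3, matplotlib 3.10.9, R 4.3.3 and limma 3.58.1 were used.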

Additional observations from a re-analysis of the deposited data

How the results depend on the processing

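Of 144 comparisons of an arm's median or count with its value under an alternative, 11 moved, for a median by at least the SD between probe sets (0.15 to 0.23) and for a count by over 1.5 times; smaller moves were not counted. Some alternatives could not move a result. These were the other floors, since every member was above them, and, for counts, leaving out equal values. Over all alternatives, the sterol median ran from 0.18 to 0.30 with osteogenic medium, from -0.17 to -0.11 with DMSO and from 0.09 to 0.19 for osteogenic medium with DMSO against normal medium. The fatty acid medians ran from -0.02 to 0.18, from -0.05 to 0.02 and from -0.01 to 0.06, so their direction was not settled. Centring on the spikes left 7 sterol and 2 fatty acid genes risen with osteogenic medium and 2 sterol genes fallen with DMSO. Quantile normalization left 1 sterol gene risen with DMSO and 0 fallen against normal medium, and gave 2 fatty acid genes risen against normal medium. Cyclic loess left 1 sterol gene risen with DMSO. The mean over all probe sets of a gene left 2 fatty acid genes risen with osteogenic medium, and 2 risen and 0 fallen for osteogenic medium with DMSO against normal medium. Probe sets without a suffix gave 2 sterol genes fallen in that comparison, over 18 genes. Of 723 values of single members under alternatives, 21 moved by more than the SD between probe sets, all under the 2 other rules for the probe set. The cause of those moves was not tested. The other floors could not move a member's value. Centring on the spikes could not either, since it shifts all genes alike, by -0.10, 0.04 and -0.06 in the 3 comparisons, which is less than that SD. These totals therefore do not measure how robust the values are.

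No paired analysis was possible because each medium had 1 array. With 1 array per medium the spread between cultures is unknown, and most changes of the members are close in size to the scatter between probe sets. The arrays were on one scale when deposited, so a change in the total RNA per cell would not be seen. Equal values draw medians towards 0.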
